A study of Mus musculus with 6 samples.

Results

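The transcription factors that specify and maintain the lung lineages were followed in orthotopic lung tumors grown with and without prior lung fibrosis. The set was defined by gene symbol and holds 10 of the 31130 genes in the count tables, 5 factors of the lung epithelium (Nkx2-1, Foxa1, Foxa2, Cebpa and Gata6) and 5 of the lung mesenchyme (Foxf1, Tbx2, Tbx4, Tbx5 and Tcf21). All 10 had at least 1 UMI (a unique molecular identifier, which marks a single captured RNA molecule) in every tumor. Wild-type female C57BL/6 mice of 6 to 8 weeks received cells of Lewis lung carcinoma (LLC), a mouse lung cancer line, in a GFP-carrying form, into the left lung on day 14, and tumor tissue was taken on day 21. In the IP+LC group (interstitial pneumonia and lung cancer, n = 3) the mice had first been given bleomycin, which injures lung tissue and leaves it fibrotic, at 2.0 mg/kg through the oropharynx at the start of the experiment. The LC group (lung cancer, n = 3) had no bleomycin, and is the control for the question of how a fibrotic lung changes the tumor. Each library held the RNA of whole tumor tissue, the tumor cells all came from 1 line, and the labels did not state whether each tumor came from a different mouse, so the p-values describe the spread between these tumors.

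Nkx2-1, Foxa1, Foxa2, Gata6 and Cebpa act together in the lung endoderm and its descendants, where they open and activate the genes for surfactant proteins, secretoglobins and the lipid machinery of alveolar type 2 cells. Foxf1, Tbx2, Tbx4, Tbx5 and Tcf21 belong to the mesoderm around the lung buds, which answers Hedgehog signals from the epithelium and returns fibroblast growth factors to it, and they remain expressed in fibroblasts, pericytes, smooth muscle or endothelium of the adult lung. Several of them also work elsewhere, Cebpa in myeloid cells, adipocytes and liver, and Gata6 and Tbx5 in the heart.

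Library totals ran from 592733 to 1631066 UMIs. LC replicate 1 was the shallowest library and stood apart, since its log2 CPM values (UMIs scaled to 1000000 per library) across genes correlated with the other LC tumors at r = 0.840 and 0.799, against 0.962 between those, and with the IP+LC tumors at 0.796 to 0.822. Its summed level of 10 proliferation markers was 718 CPM, between 158 and 161 CPM in the other LC tumors and 1245 to 1450 CPM in the IP+LC tumors, and its 9 macrophage markers summed to 2354 CPM, against 630 to 875 CPM and 2421 to 3058 CPM. For the factors and the genes named with them, values that this library decides are also given without it. The labels name the cell type as lung cancer cells, but the tissue also held host lung: the 9 markers of type 2 alveolar cells summed to between 36184 and 45519 CPM in LC and between 6708 and 12014 CPM in IP+LC, and each was detected. In such bulk samples fewer cells of a type and less RNA per cell cannot be told apart.

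Of the 10 lineage factors, 9 fell in the IP+LC tumors at an adjusted p under 0.1, all 5 epithelial factors and 4 of the 5 mesenchymal factors, and the background share of tested genes called lower was 19.6% (2203 of 11240 genes, edgeR quasi-likelihood test with Benjamini-Hochberg adjustment). In 8 of the 10 every IP+LC tumor lay below every LC tumor, which 21.5% of tested genes did. In the other direction, 16.8% of tested genes were called higher, and in 21.6% every IP+LC tumor lay above every LC tumor. The median log2 fold change was -1.41 over the epithelial and -1.77 over the mesenchymal factors, where the median of all tested genes was 0.018. Without LC replicate 1 all 10 factors were called lower, and the shares of all genes called lower and higher were 28.7% and 28.3%.

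**Figure D1:**
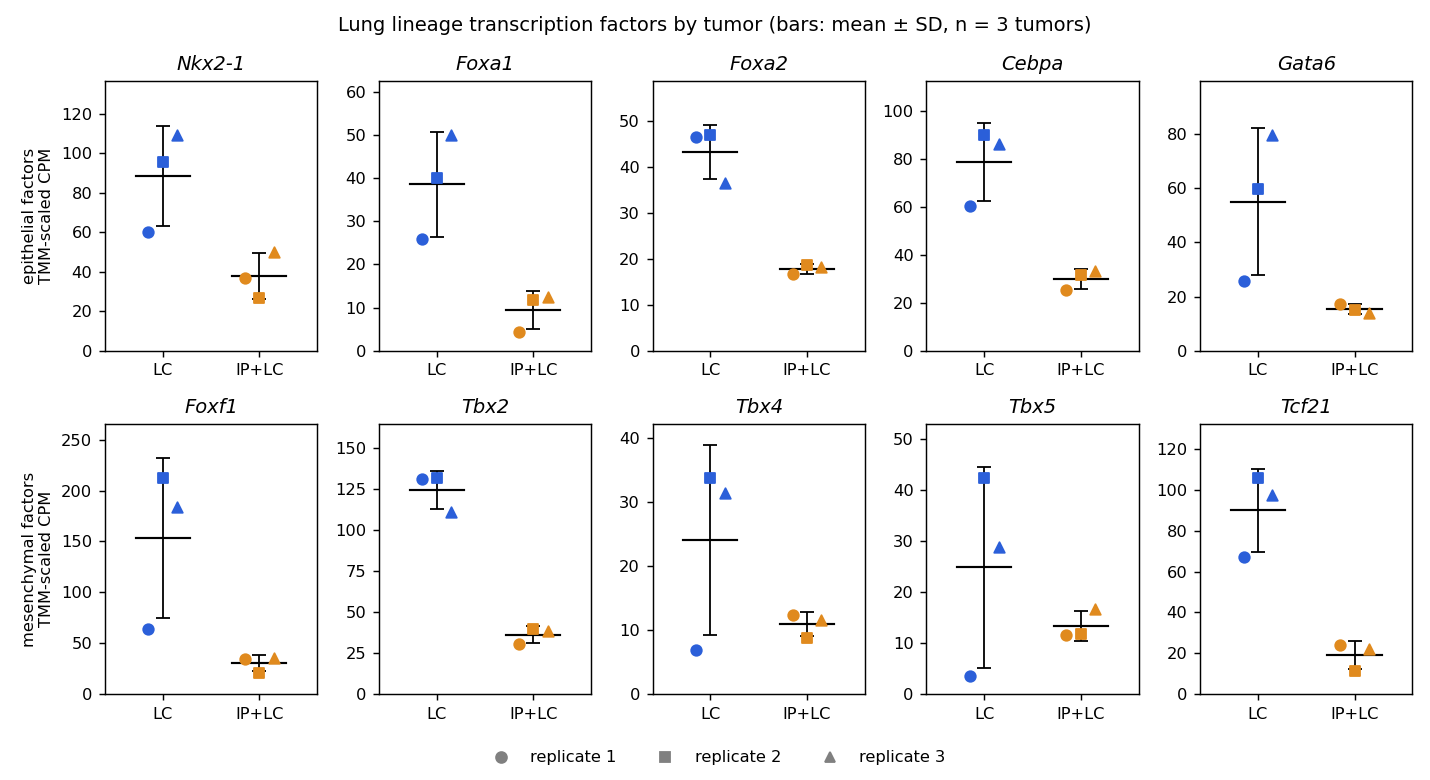
Level of each lineage factor in every tumor, in CPM on a linear axis, the LC tumors in blue and the IP+LC tumors in orange, with bars for the group mean ± SD. In 8 factors the 3 IP+LC points lie below the 3 LC points, and in Tbx4 and Tbx5 the lowest point is LC replicate 1.

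**Figure D2:**
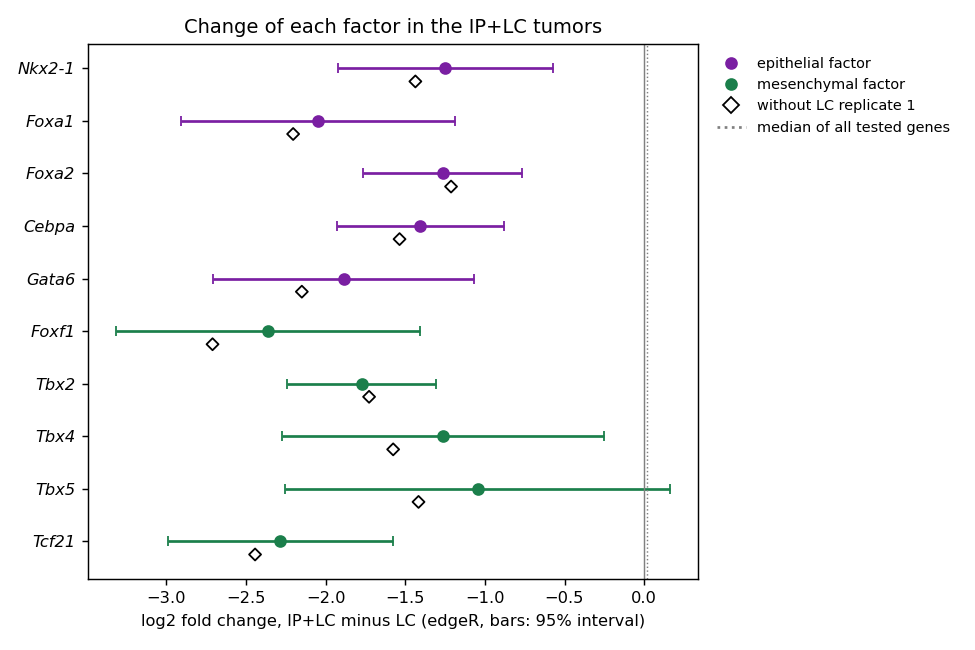
Log2 fold change (IP+LC minus LC) of each factor with its 95% confidence interval over all 6 tumors, and as open diamonds the fold change without LC replicate 1. The intervals of 9 factors lie below 0 with all tumors, the exception being Tbx5, whose interval ran from -2.25 to 0.16.

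Nkx2-1 (ENSMUSG00000001496, chromosome 12 from 56531958 to 56536908, minus strand, GRCm38) encodes the homeodomain factor that marks the lung endoderm from its beginning and drives surfactant and secretoglobin genes. Its level was 60.3, 95.6 and 109 CPM in LC replicates 1 to 3, from 35, 122 and 129 UMIs, and 37.0, 26.8 and 50.1 CPM in the IP+LC tumors, from 51, 46 and 69 UMIs. The highest IP+LC tumor was close to the lowest LC tumor, but below it. The mean fell from 88.4 ± 25.3 to 37.98 ± 11.7 CPM (SD, n = 3 each), a log2 fold change of -1.25 (SE 0.30), or 2.37-fold, with an adjusted p of 0.0156 (edgeR).

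Foxa1 (ENSMUSG00000035451, chromosome 12 from 57540628 to 57546916, minus strand) and Foxa2 (ENSMUSG00000037025, chromosome 2 from 148042877 to 148046969, minus strand) encode winged-helix pioneer factors, which bind closed chromatin and make it accessible to other regulators in endoderm. Foxa1 was at 25.8, 39.96 and 49.998 CPM in the LC tumors and at 4.35, 11.7 and 12.3 CPM in the IP+LC tumors, where it rested on only 6, 20 and 17 UMIs. Foxa2 was at 46.5, 47.0 and 36.4 CPM in LC and at 16.7, 18.7 and 18.2 CPM in IP+LC. The groups did not overlap in either gene, and the IP+LC tumors lay close together in Foxa2. Foxa1 fell 4.14-fold (log2 fold change -2.05, SE 0.38, adjusted p = 0.00563, edgeR), and Foxa2 fell 2.40-fold (-1.26, SE 0.22, adjusted p = 0.00444). Of all tested genes, 3.40% had a lower fold change than Foxa1 and 10.4% a lower one than Foxa2.

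Cebpa (ENSMUSG00000034957, chromosome 7 from 35119293 to 35121928, plus strand) encodes a leucine zipper factor needed for the maturation of type 2 cells and for lipid metabolism. It was measured at 60.3, 90.1 and 86.4 CPM in LC and at 25.4, 31.5 and 33.4 CPM in IP+LC, so that every LC tumor was far above every IP+LC tumor. The mean fell from 78.9 ± 16.3 to 30.1 ± 4.196 CPM (SD, n = 3 each), which was 2.65-fold (log2 fold change -1.41, SE 0.23, adjusted p = 0.00353, edgeR). Among markers of other cells that can express Cebpa, 9 of 9 alveolar macrophage markers fell, their sum being 1541 to 1844 CPM in LC and 202 to 423 CPM in IP+LC, and 5 of 5 tested adipocyte markers fell, with sums of 666 to 985 CPM and 98.6 to 199 CPM. Other myeloid markers did not all follow, since 5 of 9 macrophage markers rose (8 of 9 without LC replicate 1), with sums of 630 to 2354 CPM in LC and 2421 to 3058 CPM in IP+LC, and 3 of 7 tested neutrophil markers fell (832 to 1996 CPM against 276 to 360.2 CPM). Over all tested genes, 19.6% were called lower and 16.8% higher, and 28.3% were called higher without LC replicate 1. Among the macrophage markers that rose, Adgre1, C1qa and C1qc, singled out after their values were seen, kept their call in 6 to 9 of 15 alternatives. No marker of these lists was at 0 in all 6 tumors, and their part in the fall of Cebpa was not tested.

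The start regions of these factors are shown because the same families of factor are known to bind each other's genes. Promoter windows of 300 bases (250 before and 50 after the annotated start, RefSeq, GRCm38.p6) were at hand for 6 of the 10 factors, Nkx2-1, Foxa1, Foxa2, Cebpa, Tbx4 and Tcf21. Both strands were searched for the forkhead motif TGTTTAC and its variant form TGTTTGC, for the motif of Nkx2-1, spelled CTCAAG, and for that of the GATA family, spelled AGATAA. The search also took in the motif of the CEBP family, spelled TTGCNNAA, with its palindromic case TTGCGCAA, the site of the T-box family, spelled AGGTGTGA, the E-box CAGCTG and the box TATAAA. The window of Foxa1 (chr12:57546062-57546361, minus strand) held the forkhead letters on its reverse strand at bases 110 to 116, and 3.65% of 32851 promoters held them. The third of 3 windows of Foxa2 (chr2:148045415-148045714, minus strand) held TATAAA reversed at bases 43 to 48 (13.6% of promoters), and CTCAAG reversed at bases 64 to 69 (15.9%), which overlapped AGATAA at bases 68 to 73 (11.2%). The window of Cebpa (chr7:35119043-35119342, plus strand) held TATAAA at bases 221 to 226. The matches are in capitals, 5′ to 3′ on the strand of each gene, and they describe letters only, without showing binding.
Foxa1: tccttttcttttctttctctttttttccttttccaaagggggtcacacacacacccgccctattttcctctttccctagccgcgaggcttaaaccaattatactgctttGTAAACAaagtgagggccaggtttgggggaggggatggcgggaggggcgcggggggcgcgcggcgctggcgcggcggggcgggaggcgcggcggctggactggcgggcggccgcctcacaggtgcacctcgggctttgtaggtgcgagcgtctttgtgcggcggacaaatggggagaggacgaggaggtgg
Foxa2: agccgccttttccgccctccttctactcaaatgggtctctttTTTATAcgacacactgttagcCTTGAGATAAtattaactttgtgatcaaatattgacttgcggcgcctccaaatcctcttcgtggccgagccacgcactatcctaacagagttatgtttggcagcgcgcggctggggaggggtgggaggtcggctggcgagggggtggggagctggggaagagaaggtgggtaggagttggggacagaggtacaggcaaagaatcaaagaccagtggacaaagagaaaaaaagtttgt
Cebpa: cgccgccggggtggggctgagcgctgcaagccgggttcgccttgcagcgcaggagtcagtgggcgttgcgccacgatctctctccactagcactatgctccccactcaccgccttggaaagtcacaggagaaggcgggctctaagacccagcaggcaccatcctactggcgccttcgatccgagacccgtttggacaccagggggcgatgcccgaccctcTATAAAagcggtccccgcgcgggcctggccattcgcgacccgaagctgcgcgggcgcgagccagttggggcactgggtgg

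The remaining motifs were found seldom or nowhere in these windows. CAGCTG (16.3% of promoters) and a reversed TATAAA stood in the window of Tbx4, and TGTTTGC (5.07% of promoters), TTGCNNAA (10.8%) and AGGTGTGA (1.28%) matched no member's window. The Nkx2-1 window held no searched motif. Member windows had a median GC content of 56.7%, with a range of 51.7% to 67.3%, and the median of all promoters was 52.7%.

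Gata6 (ENSMUSG00000005836, chromosome 18 from 11052064 to 11085635, plus strand) encodes a zinc finger factor of the lung endoderm that acts with Nkx2-1, and is also used by smooth muscle and heart. Its LC tumors read 25.8, 59.5 and 79.7 CPM and its IP+LC tumors 17.4, 15.2 and 13.8 CPM. The LC spread was wide, with LC replicate 1 lowest, and the IP+LC tumors lay close together beneath it. Gata6 fell 3.70-fold (log2 fold change -1.89, SE 0.36, adjusted p = 0.00643, edgeR), and by 4.44-fold without LC replicate 1. The 7 tested markers of cardiac muscle all fell as well, beside 19.6% of all tested genes called lower. Their sums were 1093 to 2232 CPM in LC and 163 to 418 CPM in IP+LC, and the part of these markers in the fall of Gata6 was not tested.

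Foxf1 (ENSMUSG00000042812, chromosome 8 from 121084386 to 121088144, plus strand) encodes the forkhead factor that the lung mesenchyme and endothelium express in answer to Hedgehog signals. Its LC tumors held 37, 271 and 217 UMIs, or 63.7, 212 and 184 CPM, and its IP+LC tumors held 48, 36 and 49 UMIs, or 34.8, 21.01 and 35.6 CPM. Even the low LC replicate 1 was above all IP+LC tumors. Foxf1 was 5.14-fold lower in IP+LC (log2 fold change -2.36, SE 0.42, adjusted p = 0.00489, edgeR), and 1.90% of tested genes had a lower one. Without LC replicate 1 the fold was 6.55.

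Fendrr, a long non-coding RNA transcribed away from Foxf1 on the opposite strand with starts 1276 bases apart, had 28, 86 and 61 UMIs in LC and 14, 13 and 16 UMIs in IP+LC. It moved with its neighbour, with a log2 fold change of -2.53 (adjusted p = 0.000859, edgeR). The gene bodies of Foxf1 and Fendrr do not overlap. Other transcripts on the opposite strand at Nkx2-1, Cebpa, Gata6, Tbx2, Tbx5 and Tcf21 had at most 10 UMIs in any tumor, and shared at most 1.94% of the exonic bases of those factors.

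Tbx2 (ENSMUSG00000000093, chromosome 11 from 85832551 to 85841948, plus strand) encodes a T-box repressor of the lung mesenchyme, and Tbx4 (ENSMUSG00000000094, chromosome 11 from 85886422 to 85916097, plus strand) lies next to it. Tbx2 was the most even factor within LC, at 131, 132 and 111 CPM, and stood at 30.5, 39.7 and 38.5 CPM in IP+LC. The groups were further apart than the spread within either. Tbx2 fell 3.42-fold (log2 fold change -1.77, SE 0.21, adjusted p = 0.00113, edgeR), from a mean of 125 ± 11.7 to one of 36.2 ± 5.02 CPM (SD, n = 3 each).

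Tbx4 and Tbx5 (ENSMUSG00000018263, chromosome 5 from 119832668 to 119885219, plus strand) together direct Fgf10 in the mesenchyme of the budding lung, and both were sparse. Tbx4 was at 6.89, 33.7 and 31.4 CPM in LC and at 12.3, 8.76 and 11.6 CPM in IP+LC. Tbx5 was at 3.44, 42.3 and 28.8 CPM in LC and at 11.6, 11.7 and 16.7 CPM in IP+LC. In both genes LC replicate 1 was the lowest of the 6 tumors, with 4 and 2 UMIs, while the other LC tumors were above all IP+LC tumors. With all tumors Tbx4 passed at an adjusted p of 0.0656 (log2 fold change -1.26, SE 0.45, edgeR) and Tbx5 did not (-1.04, SE 0.54, 95% interval -2.25 to 0.16, adjusted p = 0.179). The call of Tbx4 was lost with DESeq2, in the replicate block fit and on leaving out LC replicate 2 or 3 or any IP+LC tumor (adjusted p from 0.1003 to 0.262). Without LC replicate 1 the log2 fold changes were -1.58 for Tbx4 (adjusted p = 0.000274) and -1.42 for Tbx5 (adjusted p = 0.000772), both called lower. Without LC replicate 2 they were -0.97 for Tbx4 (adjusted p = 0.262) and -0.48 for Tbx5 (adjusted p = 0.632).

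The position of LC replicate 1 differed from factor to factor. Against the mean of the other LC tumors, on the log2(CPM + 4) scale, it was lower by a difference of -2.41 in Tbx5, -1.75 in Tbx4, -1.58 in Foxf1 and -1.30 in Gata6, and the median over tested genes was -0.03. In Tbx2 and Foxa2 the difference was 0.11 and 0.14. For Tbx5, 1.601% of tested genes had a lower difference.

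Tcf21 (ENSMUSG00000045680, chromosome 10 from 22817281 to 22820174, minus strand) encodes a basic helix-loop-helix factor of lung fibroblasts, lipid-storing ones among them. Its LC tumors were at 67.2, 106 and 97.5 CPM and its IP+LC tumors at 23.9, 11.1 and 21.8 CPM. The groups were far apart, with IP+LC replicate 2 the lowest. Tcf21 fell 4.87-fold, with a log2 fold change of -2.28 (SE 0.31, adjusted p = 0.00162, edgeR). Its promoter window (chr10:22820094-22820393, minus strand) is printed because it carried the same pair of motifs as Foxa2, with the capitals marking CTCAAG reversed at bases 60 to 65 and AGATAA at bases 220 to 225.
Tcf21: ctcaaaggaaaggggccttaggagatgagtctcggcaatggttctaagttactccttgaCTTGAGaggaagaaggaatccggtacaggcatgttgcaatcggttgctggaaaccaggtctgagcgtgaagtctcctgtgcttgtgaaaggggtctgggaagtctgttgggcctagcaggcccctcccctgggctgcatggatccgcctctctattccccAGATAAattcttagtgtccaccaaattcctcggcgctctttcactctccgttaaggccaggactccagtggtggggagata

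Set side by side, both classes were lower in the fibrotic setting. Summed over the 5 epithelial factors, the LC tumors had 219, 332 and 362 CPM and the IP+LC tumors 101, 104 and 128 CPM, means of 304 ± 75.6 and 111 ± 14.8 CPM (SD, n = 3 each) that differed 2.75-fold. The 5 mesenchymal factors summed to 272, 526 and 453 CPM in LC and to 113, 92.2 and 124 CPM in IP+LC, means of 417 ± 131 and 110 ± 16.2 CPM that differed 3.79-fold. Neither sum overlapped between the groups.

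Mesenchymal factors made up 55.4%, 61.3% and 55.6% of the factor UMIs in the LC tumors and 52.9%, 47.0% and 49.3% in the IP+LC tumors. The groups did not overlap, but the exact binomial 95% intervals of LC replicate 1 (49.5% to 61.3%) and LC replicate 3 (52.4% to 58.7%, counting error only) held the IP+LC value of 52.9%. As a log2 ratio of mesenchymal to epithelial UMIs, the mean was 0.43 ± 0.20 in LC and -0.02 ± 0.17 in IP+LC, a difference of -0.45. On the mean of log2(CPM + 4), which weights each factor alike, the difference was -0.045, and the groups overlapped. No test was made of the difference between the classes.

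**Figure D3:**
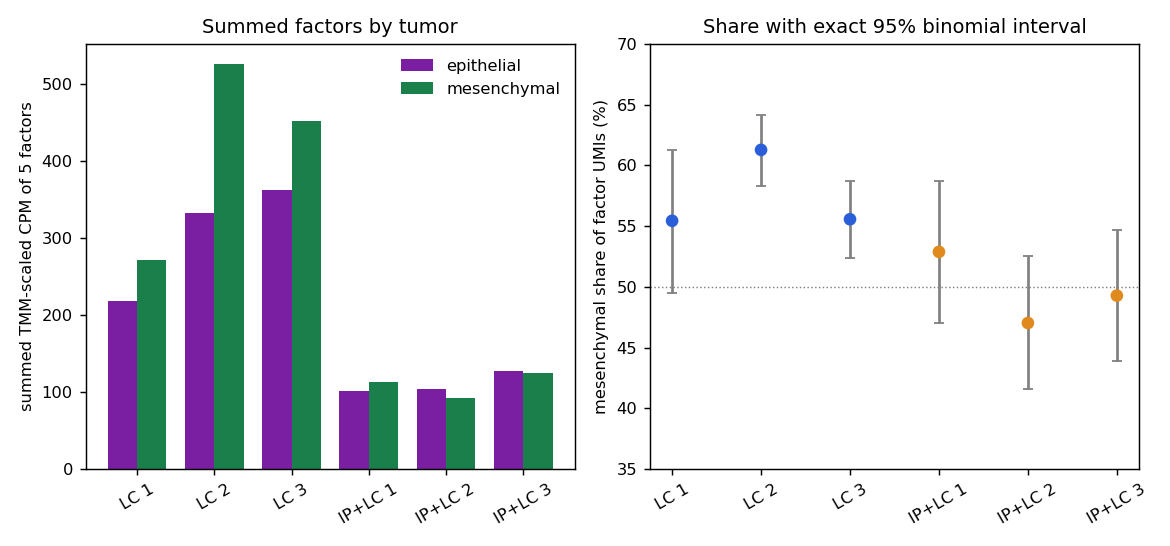
Summed level of the 5 epithelial and of the 5 mesenchymal factors in each tumor, in CPM, and the share of the factor UMIs that were mesenchymal, in percent with its exact binomial 95% interval. Both sums are lower in all IP+LC tumors, and the mesenchymal share runs from 55.4% to 61.3% in LC and from 47.0% to 52.9% in IP+LC.

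The make-up of each class varied among tumors. Foxf1 gave 23.4%, 40.4% and 40.6% of the mesenchymal factor UMIs in LC and 30.8%, 22.8% and 28.7% in IP+LC. Tbx2 took 48.1% in LC replicate 1 and 25.04% and 24.5% in the other LC tumors, against 26.9%, 43.0% and 31.0% in IP+LC. The shares of Tbx4 and Tbx5 were higher in every IP+LC tumor than in every LC tumor, at 9.36% to 10.9% against 2.53% to 6.93% for Tbx4 and at 10.3% to 13.5% against 1.27% to 8.05% for Tbx5, with LC replicate 1 lowest in both. In the epithelial class the ranges overlapped for Nkx2-1, Foxa2, Cebpa and Gata6, and Foxa1 had 11.8% to 13.8% in LC and 4.32% to 11.2% in IP+LC.

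Markers of the cells that express these factors mostly fell alongside them. Over all tested genes, 19.6% were called lower and 16.8% higher. Of the epithelial markers, 8 of 9 for type 2 cells, 8 of 9 for type 1 cells and 10 of 10 for airway epithelium fell, with airway sums of 54373 to 64569 CPM in LC and 3759 to 8031 CPM in IP+LC. Of the markers shared by all epithelium, 7 of 9 tested fell, with a median log2 fold change of -0.83 and sums of 1076 to 1215 CPM against 594 to 742 CPM. Of the mesodermal markers, 10 of 10 for endothelium (2016 to 3555 CPM against 566 to 765 CPM) and 7 of 10 for smooth muscle and pericytes (847 to 1326 CPM against 290.1 to 387 CPM) fell, as did 6 of 6 tested for mesothelium (336 to 559 CPM against 117 to 182 CPM), while fibroblast markers split into 6 lower and 2 higher (3797 to 5417 CPM against 2228 to 2399 CPM in sum). No marker in these 8 lists was at 0 in all tumors, and the part of cell composition in the fall of the factors was not tested.

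The number of factor UMIs per 1000 marker UMIs depended on the marker list. Epithelial factors stood at 6.04, 7.73 and 7.95 per 1000 type 2 marker UMIs in LC and at 8.39, 15.5 and 12.6 in IP+LC, higher in every IP+LC tumor. Per 1000 airway marker UMIs they were at 4.02 to 6.59 in LC and 14.1 to 27.6 in IP+LC. Against 10 markers shared by all epithelium, among them Epcam and keratin genes, the order was the opposite, with 203, 309 and 298 per 1000 in LC and 166, 175 and 172 in IP+LC. Mesenchymal factors were likewise higher per endothelial marker UMI, at 135 to 148 per 1000 in LC and 162 to 163 in IP+LC, and lower per fibroblast marker UMI, at 71.7 to 97.0 and 41.4 to 53.8. Per 1000 smooth muscle and pericyte marker UMIs, LC replicate 1 was at 321, next to the IP+LC tumors at 311 to 321, and the other LC tumors were at 397 and 401.

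**Figure D4:**
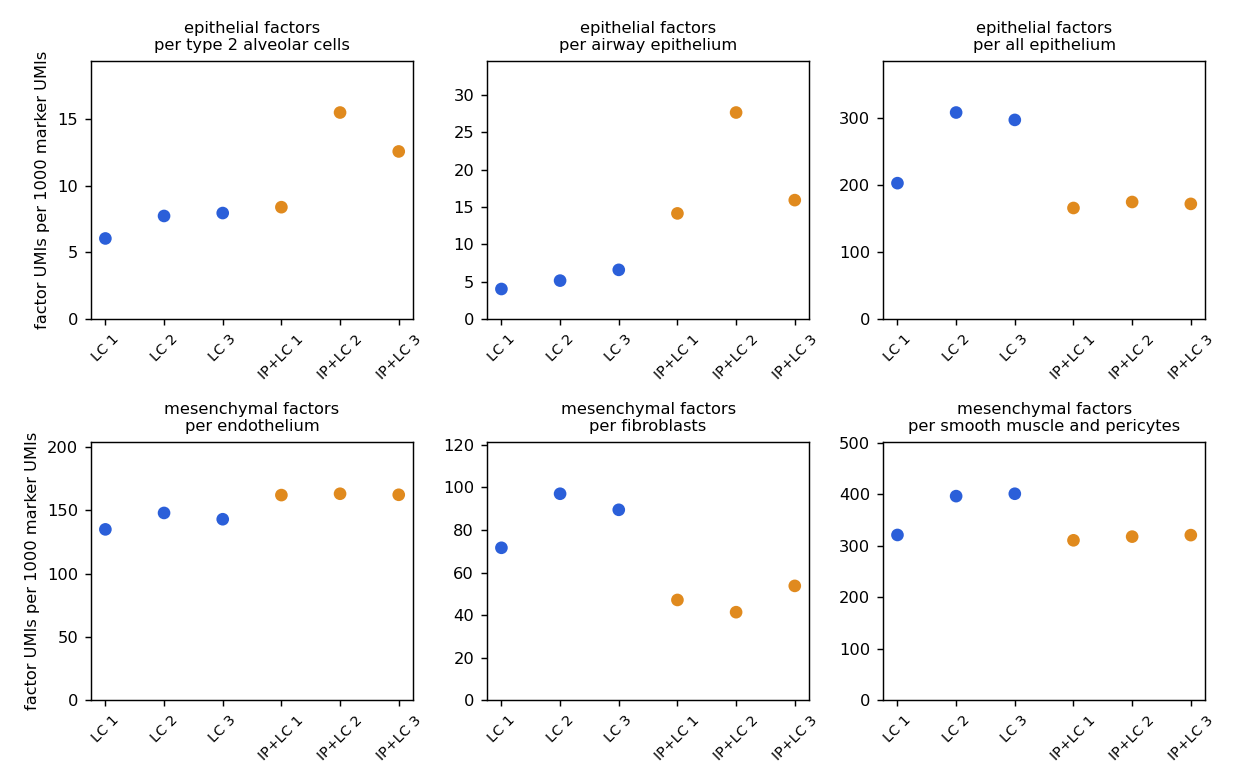
Factor UMIs per 1000 UMIs of 6 marker lists, 1 point per tumor, on linear axes that start at 0. Epithelial factors are higher in IP+LC per type 2 and airway marker UMI and lower per marker UMI of all epithelium; mesenchymal factors are higher per endothelial and lower per fibroblast marker UMI.

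Genes known to be activated by Nkx2-1, Foxa1, Foxa2 or Cebpa fell with them. Of 20 such genes, 18 were called lower and the other 2 were not called, with a median log2 fold change of -1.83, beside 19.6% of all tested genes. Without LC replicate 1 all 20 were called lower, beside 28.7% of all genes. The list includes all 9 type 2 markers and some of the type 1 and airway markers counted above, so these counts are not independent of those. Scgb1a1, the secretoglobin of club cells, fell from 41458 ± 2981 to 4454 ± 1658 CPM (SD, n = 3 each), a log2 fold change of -3.22 (adjusted p = 0.00113, edgeR). Sftpc, a surfactant protein of type 2 cells, fell from 27466 ± 3357 to 6347 ± 1865 CPM (-2.11, adjusted p = 0.00258), and Sftpa1, another surfactant protein, fell by 2.54 on the log2 scale (adjusted p = 0.00137). Lyz2, a lysozyme made by type 2 cells and also by macrophages, fell less, by 1.11 (adjusted p = 0.0127).

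Among 37 other epithelial transcription factors of the lung, 22 could be tested, of which 13 fell and 2 rose, with a median log2 fold change of -1.17, beside the 19.6% and 16.8% of all tested genes called lower and higher. Hopx, a homeodomain protein of type 1 cells, fell from 985 ± 434 to 202 ± 44.1 CPM (SD, n = 3 each), a log2 fold change of -2.28 (adjusted p = 0.00225, edgeR). Nfib (-1.03, adjusted p = 0.229), Id2 (-0.52, adjusted p = 0.196) and Foxp1 (-0.19, adjusted p = 0.811), the next most abundant, were not called and overlapped between the groups, with LC replicate 1 the lowest LC tumor in each. Without LC replicate 1 all 3 were called lower, Nfib at -1.50 (adjusted p = 4.69e-06), Id2 at -0.76 (0.000521) and Foxp1 at -0.62 (0.00117). In that setting 18 of 23 tested factors of the list fell and 2 rose, beside 28.7% and 28.3% of all genes. The genes that rose, named after their values were seen, were Sox9 and Etv4, both used at the tips of the developing lung. Sox9 had 3, 7 and 6 UMIs in LC and 24, 43 and 26 in IP+LC (log2 fold change 1.95, adjusted p = 0.00408), with no overlap. Etv4 had 13 UMIs in LC replicate 1, was without UMIs in the other LC tumors and had 52, 41 and 25 in IP+LC (2.48, adjusted p = 0.0911). Its groups overlapped in CPM, with LC replicate 1 at 22.4 and IP+LC replicate 3 at 18.2, and its call held in 7 of 14 alternative analyses. Without LC replicate 1 its IP+LC mean of 26.6 CPM was at least 10.9-fold higher than the LC floor, set at 3 UMIs per library (2.45 CPM on average).

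Of 37 other mesenchymal transcription factors listed, 23 were tested, 8 fell and 5 rose, with a median log2 fold change of -0.44, beside the 19.6% and 16.8% of all tested genes. Leaving out LC replicate 1 gave 12 lower and 7 higher of 24, beside 28.7% and 28.3%. The number that fell was 3 when LC 2 was left out, 5 when LC 3 was, 4 when IP+LC 1 was and 2 when IP+LC 2 was. Thinned libraries gave 1, where part of the 8 were no longer tested and others lost their call. Tbx3, the T-box partner of Tbx2, fell from 32.7, 158 and 119 CPM to 19.6, 24.5 and 30.5 CPM (log2 fold change -2.10, adjusted p = 0.0121, edgeR). Zeb2 (0.34, adjusted p = 0.513), Nr2f2 (-0.21, adjusted p = 0.794) and Zeb1 (-0.65, adjusted p = 0.173) were not called. LC replicate 1 was the lowest of the 6 tumors in all 3 genes, and without it Nr2f2 (-0.64, adjusted p = 0.00146) and Zeb1 (-0.92, adjusted p = 0.000408) were called lower while Zeb2 was at 0.02 (adjusted p = 0.938). The 5 that rose, named after their values were seen, were Twist1 (2.52), Twist2 (1.86), Snai2 (1.35), Gli3 (1.07) and Snai1 (1.03, all log2 fold changes), of which the Twist and Snai genes encode factors active in migrating mesenchyme and in epithelial-mesenchymal transition. Twist1 had 3, 1 and 3 UMIs in LC and 24, 22 and 16 in IP+LC, and in all 5 genes every IP+LC tumor was above every LC tumor. As a share of the tested list this was close to the 21.6% found over all tested genes. In the other direction, every IP+LC tumor lay below every LC tumor in 3 of the 23, beside 21.5% of all tested genes. Twist1 and Snai2 kept their call in every alternative that tested them, Twist2 in 12 of 13, Snai1 in 10 of 13 and Gli3 in 9 of 14.

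Of 35 close relatives of the members, 9 were tested, 3 fell and 1 rose, beside the 19.6% and 16.8% of all tested genes called in each direction. Without LC replicate 1, 5 of 11 fell and 2 rose, beside 28.7% and 28.3% of all genes. Cebpb, a relative of Cebpa used in inflammatory and myeloid gene expression, was at 107, 198 and 206 CPM in LC and at 337, 390 and 346 CPM in IP+LC. Its groups did not overlap and the direction was opposite to that of Cebpa, with a log2 fold change of 1.06 (SE 0.26, adjusted p = 0.0188, edgeR). Cebpd, another relative, fell by 0.66 (adjusted p = 0.0399), a call kept in 10 of 15 alternatives, and Cebpg was at 0.28 (adjusted p = 0.340). Beside Cebpd and Tbx3 the third gene that fell, named after its values were seen, was Gata2, a relative of Gata6 in endothelium and blood cells, which fell by 1.96 (adjusted p = 0.00354). Cebpb was called higher and Cebpa lower under each of 3 other ways of scaling the libraries.

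Signals that pass between lung epithelium and mesenchyme fell in 11 of 15 tested genes of 25 listed, with a median log2 fold change of -1.20, beside 19.6% of all tested genes. The count was 5 without IP+LC replicate 2 and 7 in libraries thinned to equal totals, where some of the 11 were no longer tested. Fgfr2, the epithelial receptor for Fgf10, was at 55.1, 91.7 and 92.4 CPM in LC and at 11.6, 14.6 and 21.1 CPM in IP+LC (log2 fold change -2.36, adjusted p = 0.00136, edgeR). Its ligand Fgf10, the target of Tbx4 and Tbx5 in the lung bud and named here outside the rule for examples, was at 8.61, 11.8 and 18.6 CPM in LC and at 5.08, 4.09 and 5.08 CPM in IP+LC (-1.51, adjusted p = 0.0212, called in 11 of 13 alternatives), and 7 UMIs in each IP+LC tumor lay behind those values. Both receptor and ligand were thus lower in every IP+LC tumor, though Fgf10 in LC replicate 1 was near the 5.17 CPM that 3 UMIs give there. Bmpr1a, a receptor for bone morphogenetic proteins, fell by 0.68 (adjusted p = 0.0545), a call kept in 9 of 15 alternatives and lost with library size alone, with no filter, in the replicate block fit and without LC replicate 2, IP+LC replicate 1 or IP+LC replicate 2. Fgfr1 (0.30, adjusted p = 0.309) and Spry2, a feedback inhibitor of the receptors (0.62, adjusted p = 0.453), were not called, and Spry2 had 4 UMIs in LC replicate 1 against 124 and 126 in the other LC tumors. Without LC replicate 1 Spry2 was at 0.16 (adjusted p = 0.386) and Fgfr1 was called higher, at 0.42 (adjusted p = 0.0667).

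**Figure D5:**
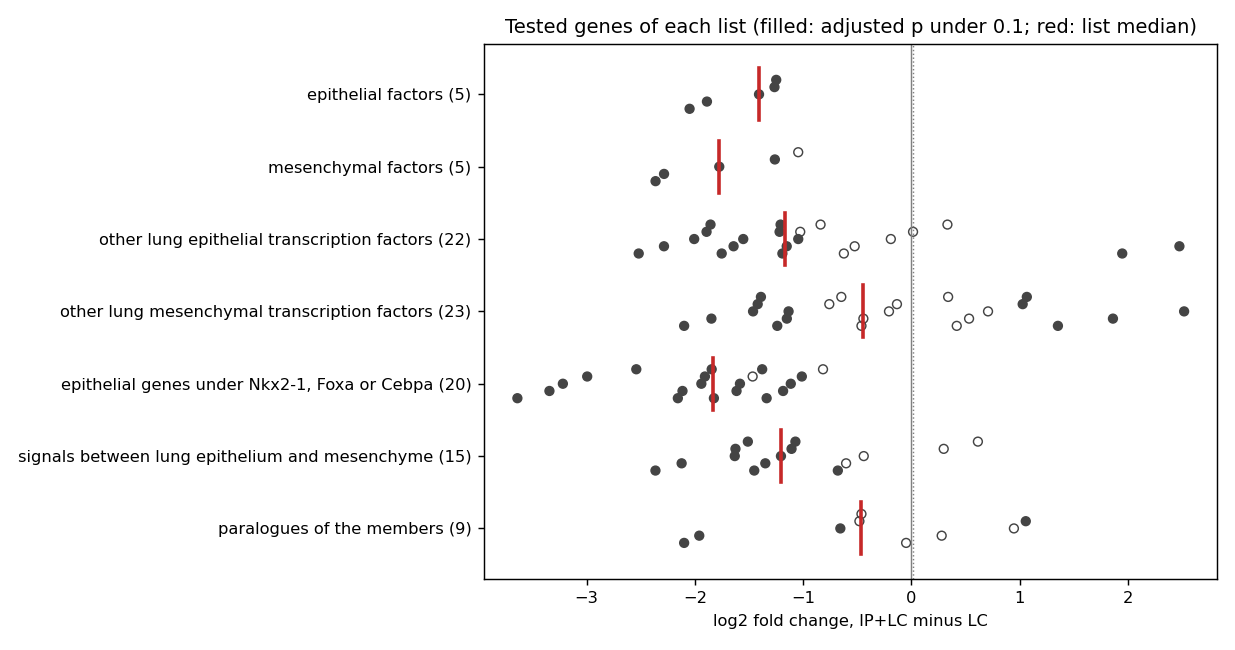
Log2 fold changes (IP+LC minus LC) of the tested genes of each list, 1 point per gene, filled where the gene was called, with a red bar at the median of the list. The medians are -1.41 for the epithelial and -1.77 for the mesenchymal factors, -1.17 and -0.44 for the other epithelial and mesenchymal transcription factors, -1.83 for the genes under Nkx2-1, Foxa or Cebpa, -1.20 for the signals and -0.46 for the paralogues.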

How the data were processed

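The 6 deposited tables hold UMI counts per gene, 1 table per tumor, from 3′ libraries made with oligo-dT primers and a 10-nucleotide UMI. The authors' processing notes name UMI-tools 1.1.1, Trim Galore 0.6.7, HISAT2 2.2.1 and featureCounts 2.0.1, and whether counting used strand is not given in the sources used here. Genes were tested in R 4.3.3 with edgeR 4.0.16 (TMM scaling, filterByExpr with a minimum count of 10, quasi-likelihood test, Benjamini-Hochberg adjustment over the 11240 genes tested) at the study's limit of 0.1. CPM are scaled by TMM. SE is the fold change over the square root of F. Positions are from GENCODE M21, which held all 31130 identifiers. At 3 UMIs a gene stands at 5.17 CPM in LC replicate 1 and at 1.75 to 2.54 CPM elsewhere. The square-root dispersion was 34.4% in LC and 11.0% in IP+LC. Intervals of shares cover counting error only.

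The members and lists were chosen with earlier results of these data known, and the factor to marker ratios were added after the values were seen. From each list other than the cell type markers the 4 genes with the highest mean CPM were named, and others are marked as outside this rule. The cell type marker lists are given as counts and sums, and the few of their genes that are named did not follow this rule. Alternatives were other scalings and filters, DESeq2 1.42.0, limma 3.58.1 voom, thinning to 592733 UMIs, a replicate block and leaving out each tumor. A comparison of protein sequences was not run.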

Additional observations from a re-analysis of the deposited data

How the results depend on the processing

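The 10 factors kept their direction under each alternative that tested them, while among the uncalled genes named, Foxp1 and Nr2f2 changed sign in 3 of 15 alternatives each (up to 0.10 and 0.15). In 8 factors (not Tbx4 and Tbx5) the call held under each alternative that tested them, and 7 to 10 factors were called lower, the 7 being all those tested when 10 UMIs were required in every library. Same-numbered tumors did not deviate together (correlations 0.026, -0.120 and 0.112), and with the replicate block 8 factors were called, Tbx4 losing its call (log2 fold change -1.13, adjusted p = 0.142) and 3410 rather than 4088 genes being called. Tbx4 lost its call in 7 of 13 alternatives, and Tbx5 gained one in 3 of 13 (no filter, voom and without LC replicate 1). Requiring 10 UMIs in every library, 7 other epithelial factors instead of 13 and 3 other mesenchymal factors instead of 8 were called lower. Each of those 13 and 8 that this filter still tested kept its call, and the others were not tested. After thinning 5 and 1 were called lower, with 7 signals instead of 11, where some genes lost their call and others were no longer tested. Leaving out a tumor gave 9 to 18 other epithelial factors, 2 to 12 other mesenchymal factors, 5 to 12 signals and 2 to 5 paralogues called lower. The class difference of -0.45 in log2 ratio was -0.045 on the mean log2(CPM + 4), and -0.25 there without LC replicate 1, a setting chosen after seeing the data. Over all genes 6233 were called with voom, 2413 after thinning, and leaving out single tumors gave 6691 (LC 1 left out), 2585 (LC 2), 2660 (IP+LC 1) and 2265 (IP+LC 2). Scaling by library size alone moved the median of all genes by 0.16 and turned 1885 higher and 2203 lower calls into 2520 and 1800. The cause of these changes was not tested.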

Other observations

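Some genes outside the lists followed the lineage factors closely over the 6 tumors, as a description with no test, since all share the 6 libraries and the group difference. For the mean of the 5 epithelial factors on the centred log2(CPM + 4) scale these were Ids, a lysosomal sulfatase (Pearson r = 0.998), Egflam, a matrix protein (0.998), Rnf167 (0.997), D3Ertd751e (0.996) and Syn2 (0.996), and 623 of 11230 genes had r above 0.95. For the mesenchymal factors they were Arhgef18 (0.999), Dkk3, a secreted protein (0.998), Add3, a protein of the membrane skeleton (0.997), Il11ra1, a receptor for interleukin 11 (0.997), and Mgll, a monoglyceride lipase (0.997), and 365 genes had r above 0.95. Dkk3 was at 31.0, 84.6 and 71.2 CPM in LC and at 21.8, 14.6 and 23.2 CPM in IP+LC, with LC replicate 1 lowest within its group as it was for Foxf1. Egflam was at 18.9, 32.1 and 37.3 CPM in LC and at 6.53, 7.004 and 7.99 CPM in IP+LC.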
